A study of Mus musculus with 288 samples.

Results

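The genes described here are regulators of mitochondrial biogenesis and mitochondrial uncoupling proteins. The list has 9 members: the coactivators Ppargc1a and Ppargc1b, the estrogen-related receptors (ERRs) Esrra, Esrrb and Esrrg, the transcription factor Nrf1, the mitochondrial DNA factor Tfam, and the carriers Ucp2 and Ucp3. Their values are those of the named genes in the 12 deposited tables, 9 of 35904 genes, and all 9 were present in all 6 tissues. The libraries come from a mouse model of obstructive sleep apnea, in which the oxygen in the air falls and recovers again and again during rest. Wild-type C57BL/6J males of 8 weeks lived for 7 days in room air (normoxia) or in intermittent hypoxia (IH), where oxygen cycled between 21% and 8% in the light phase. Then came 2 days of constant darkness in normal air, and on the last of them lung, heart, muscle, kidney, liver and cerebellum were collected every 3 hours, with 8 time labels from 1:30 to 22:30 and 3 mice per label. Each tissue thus has 24 normoxia and 24 IH libraries, and no library was taken while oxygen was low.

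Ppargc1a and Ppargc1b encode PGC-1 coactivators, which bind no DNA themselves and raise transcription through partners such as the ERRs and NRF1. These partners turn on nuclear genes of the respiratory chain and Tfam, whose protein packs mitochondrial DNA and starts its transcription. UCP2 and UCP3 sit in the inner mitochondrial membrane, and UCP3 is known mainly from skeletal muscle, heart and brown fat.

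The deposited values are TPM, transcript abundances scaled to transcript length and library total, so depth cannot be read from these tables and is unknown here. Markers of the labelled tissue were above 0 in every library of that tissue, for example 6 of 6 alveolar epithelium markers in the 48 lung libraries and 10 of 10 cardiomyocyte markers in the 48 heart libraries. Treatments differed in how many genes had a value above 0. In the lung the mean number was 22694 (SD 737, n = 24) in normoxia and 25455 (SD 1529) after IH, and in the heart it was 25124 (SD 1719) and 21447 (SD 688). In the heart these numbers parted the treatments completely, at 22988 or more in normoxia and 22793 or fewer after IH. In the lung only the normoxia library labelled 1:30 replicate 2 (25400) overlapped, the other 23 holding at most 23480 and the IH libraries at least 23622. As a term in the fit, this number would compare heart treatments at values that they do not share. In the lung only that 1 library gives shared values, so the term is used for neither. Whether the animals, the tissue or the handling of the libraries lay behind this cannot be told apart. For the tests, TPM were rescaled per tissue by the median of ratios, and log2 values with 0.5 TPM added were compared with limma among genes averaging at least 1 TPM. The p-values, adjusted over all genes tested in a tissue, measure the spread between libraries. Bulk tissue was measured, so fewer cells of a type and less RNA per cell cannot be told apart.

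Some libraries stood apart. Esrrg showed it most clearly. In the lung, the normoxia library labelled 22:30 replicate 2 held 19.6 TPM of Esrrg and that labelled 10:30 replicate 1 held 16.49, while the other 22 ran from 0.885 through a median of 1.17 to 2.46. In the lung after IH the library labelled 22:30 replicate 2 held 48.2 TPM of Esrrg, while that labelled 10:30 replicate 1 lay within the range of the other 22, from 1.19 to 8.44. In muscle the same 2 labels held 36.0 and 5.71 TPM of Esrrg in normoxia, and 22.4 and 20.8 after IH, beside at most 4.65 and 4.58 elsewhere. Esrrg was thus highest in the library labelled 22:30 replicate 2 in all 4 groups, and among 12348 genes it was the only 1 for which this held. There Esrrg lay at least 6.52-fold above the median of the other libraries in each group; the next gene, Npas2, reached 2.72-fold. Summed muscle fibre markers in these lung libraries were 141, 117, 380 and 42.3 TPM (other lung libraries: median 28.1 and highest 554 in normoxia, 45.1 and 961 after IH). The muscle libraries held 100.4, 19.7, 71.5 and 67.4 TPM of alveolar markers (other muscle libraries: median 9.42 and highest 22.7 in normoxia, 8.93 and 21.4 after IH). Kidney tubule markers stayed at or under 2.86 TPM in all 8 libraries. Cerebellar neuron markers reached 2.89 TPM in the normoxia muscle library labelled 22:30 replicate 2 (others: median 0.474 and highest 1.53). The rest of the 8 held at most 1.31 TPM of them. The part of all these markers in the Esrrg values was not tested.

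**Figure D1:**
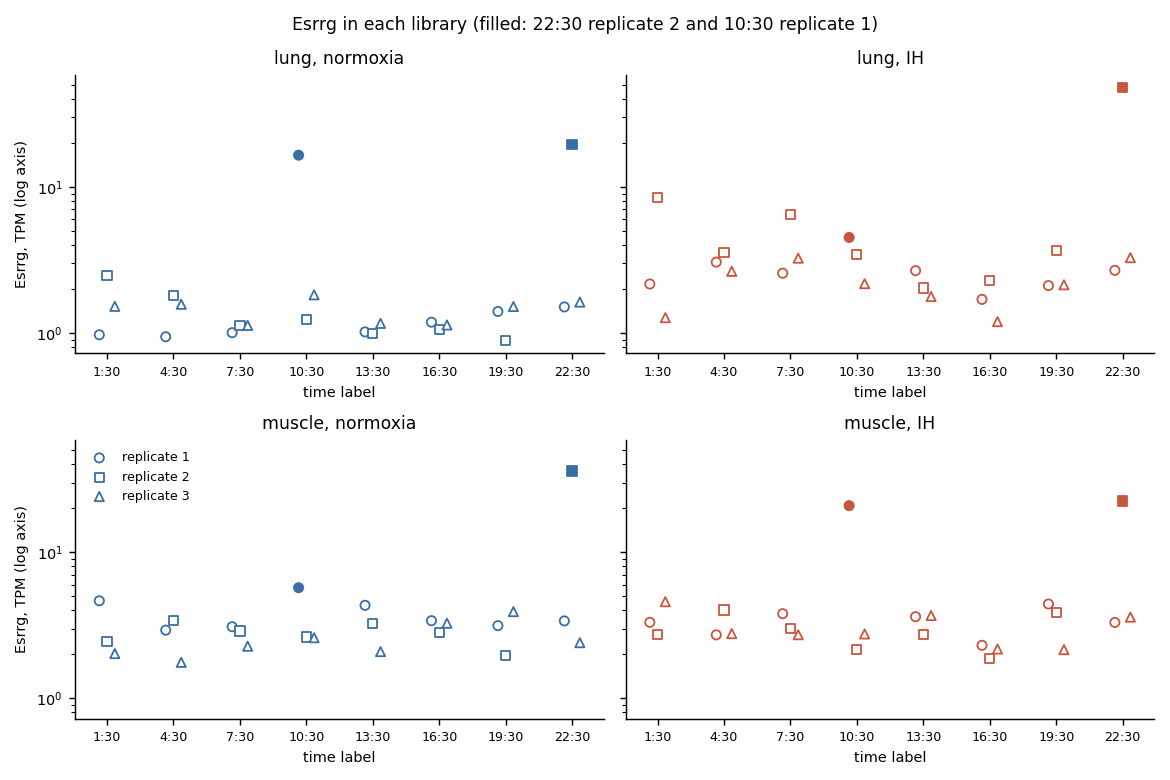
Esrrg in each lung and muscle library, in TPM on a log axis against the time label; filled symbols are the libraries labelled 22:30 replicate 2 and 10:30 replicate 1. In all 4 groups the square at 22:30 is the highest point, up to 48.2 TPM in the lung after IH.

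In the heart, 5 libraries held between 43.1 and 470 TPM of summed lymphocyte markers (Cd8a the most abundant), while the other 43 held 1.78 to 13.4. These 5 were also the highest for Ucp2: 391 and 262 TPM in normoxia (7:30 replicate 3 and 19:30 replicate 3), and 180, 147 and 191 TPM after IH (10:30 replicates 1 and 3, and 16:30 replicate 2), beside at most 141 TPM in the others. The normoxia pair was highest for Nrf1 (20.1 and 14.4 TPM) and Tfam (49.0 and 39.8 TPM) as well. In the liver, the IH library labelled 13:30 replicate 2 held 9544 TPM of cardiomyocyte markers (median of the others 51.5) and 1355 TPM of hepatocyte markers (median 48728); its Ucp3 was 3.69 TPM against at most 0.0519 in the other IH livers, and its Tfam was 11.3 TPM against a median of 34.9. In the cerebellum, the IH library labelled 1:30 replicate 3 held 11003 TPM of cardiomyocyte markers, with Ucp3 at 5.66, Nrf1 at 30.0 and Tfam at 12.6 TPM. The other cerebella held up to 6587 TPM of these markers (medians 1178 in normoxia and 686 after IH) with no clear gap. The normoxia cerebella labelled 1:30 and 4:30 replicate 1 were the highest for Nrf1, at 43.6 and 34.7 TPM. All these libraries stay in the values that follow. Where leaving them out changed the call of an IH change or of a rhythm, both values are given; no other cerebellum library was left out for its cardiomyocyte markers.

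Promoter windows of 250 bases before to 50 bases after the start site came from a table of RefSeq starts on build GRCm38.p6. For the members, 13 windows of 8 of the 9 were searched, and none of Ppargc1b. Both strands were searched for the ERR element TNAAGGTCA (in 1.28% of 32851 windows of all genes), the NRF1 core CGCATGCG (1.87%), the cAMP response element TGACGTCA (1.79%), the E-box CACGTG (7.15%) and the GABP site CCGGAAGT (3.89%). None of the 5 contains another. The single match was in Tfam, whose window holds the GABP site starting at position -47. Shown are Tfam (chr10:71237995-71238294, minus strand, GABP site in capitals) and Esrra (chr19:6921759-6922058, minus strand), which rose together in the liver after IH. Beside them stand Ucp3 (chr7:100472741-100473040, plus strand) and Ucp2 (chr7:100493108-100493407, plus strand), neighbours on chromosome 7; Ucp2 starts 6905 bases past the end of Ucp3. The G and C content is 70.3% for Tfam, 66% for Esrra, 64.3% for Ucp2 and 55% for Ucp3. A missing match says only that these letters are not in the window.
Tfam: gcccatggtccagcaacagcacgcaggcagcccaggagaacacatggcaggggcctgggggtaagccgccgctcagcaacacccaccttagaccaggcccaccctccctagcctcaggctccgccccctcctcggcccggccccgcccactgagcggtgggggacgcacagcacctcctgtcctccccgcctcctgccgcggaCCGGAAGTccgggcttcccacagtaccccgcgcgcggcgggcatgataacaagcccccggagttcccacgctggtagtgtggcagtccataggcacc
Esrra: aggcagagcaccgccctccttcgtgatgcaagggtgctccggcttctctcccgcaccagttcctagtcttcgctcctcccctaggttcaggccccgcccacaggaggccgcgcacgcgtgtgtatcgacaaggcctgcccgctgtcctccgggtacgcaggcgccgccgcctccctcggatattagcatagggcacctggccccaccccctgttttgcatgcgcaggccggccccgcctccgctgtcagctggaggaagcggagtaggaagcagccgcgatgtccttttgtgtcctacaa
Ucp3: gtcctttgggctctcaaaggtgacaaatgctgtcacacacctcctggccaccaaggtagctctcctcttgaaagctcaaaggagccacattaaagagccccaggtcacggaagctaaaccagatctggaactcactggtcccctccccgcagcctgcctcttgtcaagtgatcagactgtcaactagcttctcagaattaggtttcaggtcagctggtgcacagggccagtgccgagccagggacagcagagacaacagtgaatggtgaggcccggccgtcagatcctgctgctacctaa
Ucp2: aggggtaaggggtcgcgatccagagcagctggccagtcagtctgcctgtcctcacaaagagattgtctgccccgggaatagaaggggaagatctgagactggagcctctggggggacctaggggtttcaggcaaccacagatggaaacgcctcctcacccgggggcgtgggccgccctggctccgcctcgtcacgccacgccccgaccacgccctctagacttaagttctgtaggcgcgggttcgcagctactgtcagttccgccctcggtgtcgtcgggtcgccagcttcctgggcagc

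Levels were compared as deposited TPM in normoxia, from the mean of 24 libraries with its range. Ppargc1a was highest in the kidney (13.0 TPM, 8.10 to 21.2), then in cerebellum (8.997), heart (7.37) and muscle (4.87). Lung (1.55, 1.05 to 2.28) and liver (1.31) came last, and the lowest muscle library (3.45) lay above the highest lung library. Its relative Ppargc1b was highest in the cerebellum (9.22 TPM, 4.63 to 23.6), followed by muscle (3.73), heart (3.20), kidney (2.11), liver (1.52) and lung (0.767), and every neighbour in this order overlapped the next. The coactivators were thus weighted differently: Ppargc1b made up 13.6% (SD 3.00) of their summed TPM in the kidney, 33.2% (SD 5.84) in the lung, 49.3% (SD 8.97) in the cerebellum and 54.3% (SD 10.4) in the liver.

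Among the receptors, which bind DNA as orphan nuclear receptors, Esrra was the most abundant in every tissue. Esrra ran from 99.3 TPM in the kidney (67.5 to 117) through muscle (70.4), heart (68.3) and cerebellum (48.9) to 26.4 in both liver and lung, and neighbours overlapped throughout. Esrra made up 96.1% of the summed TPM of the 3 receptor genes in the liver but 66.6% (SD 7.17) in the cerebellum. Esrrb was found chiefly in the kidney (8.01 TPM, 4.95 to 10.3), apart from the heart (2.86, at most 4.34), and it averaged 0.0638 TPM in the lung with 1 library at 0. Esrrg reached 21.7 TPM in the cerebellum (12.1 to 43.4) and 18.3 in the kidney (12.2 to 27.1), both above every heart library (4.94, at most 8.01).

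Nrf1, a factor that drives nuclear genes of the respiratory chain, was highest in the lung (16.6 TPM, 12.2 to 20.6) and cerebellum (15.6, 7.65 to 43.6), and from 8.07 in the kidney to 4.71 in the liver elsewhere. Tfam varied least among the members, from 58.4 TPM in the kidney (36.3 to 74.0) and 44.6 in the cerebellum to between 26.1 and 30.8 in the other tissues, whose ranges overlapped. Ucp2 stood at 503 TPM in the lung (254 to 725), followed by heart (116, 41.2 to 391), kidney (76.8), muscle (59.9), cerebellum (36.1) and liver (24.7). Ucp3 belonged to muscle (36.3 TPM, 21.3 to 57.7) and heart (11.2, 4.91 to 23.1); the lowest heart library exceeded all lung libraries (1.86, at most 3.61), and in the liver it averaged 0.0263 TPM with 2 libraries at 0.

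Esrrb was the only 1 of the 9 members whose highest tissue did not overlap the next in normoxia, where 27.8% of 18080 genes had such a tissue. Ucp2 in the lung (at least 254 TPM) overlapped only with the lymphocyte-rich normoxia hearts (391 and 262 TPM), the other hearts holding at most 141. With all libraries of the 6 tissues scaled together, the highest tissue became the kidney for Esrrg and the cerebellum for Nrf1, and did not change for the other members. Likeness of pattern was measured as Pearson's r of log2 mean TPM over the 12 tissue and treatment means, against 18766 genes. Closest to Ppargc1a were Immt (r 0.979), Dld (0.948) and Pdss1 (0.948). Those nearest Ppargc1b were Gm28925 (0.983), Gm15151 (0.963) and Dpf3 (0.959). Esrra was most like Ptges2 (0.958), Abcb8 (0.946) and Isca2 (0.945), and Esrrb like BC004004 (0.946), Mrps35 (0.932) and Ppargc1a itself (0.918). Esrrg resembled Stra6 (0.988), Nt5c3 (0.973) and Snhg4 (0.966), while Nrf1 resembled Ncoa6 (0.995), Dnal1 (0.992) and Pias1 (0.990). For Tfam these were Slc4a4 (0.982), Gatm (0.979) and Tmem229a (0.9754). Ucp2 was followed by Alox12 (0.995), Gimap1 (0.993) and C1qtnf7 (0.992), and Ucp3 by Ppm1j (0.993), Sgcd (0.993) and Cdnf (0.990).

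**Figure D2:**
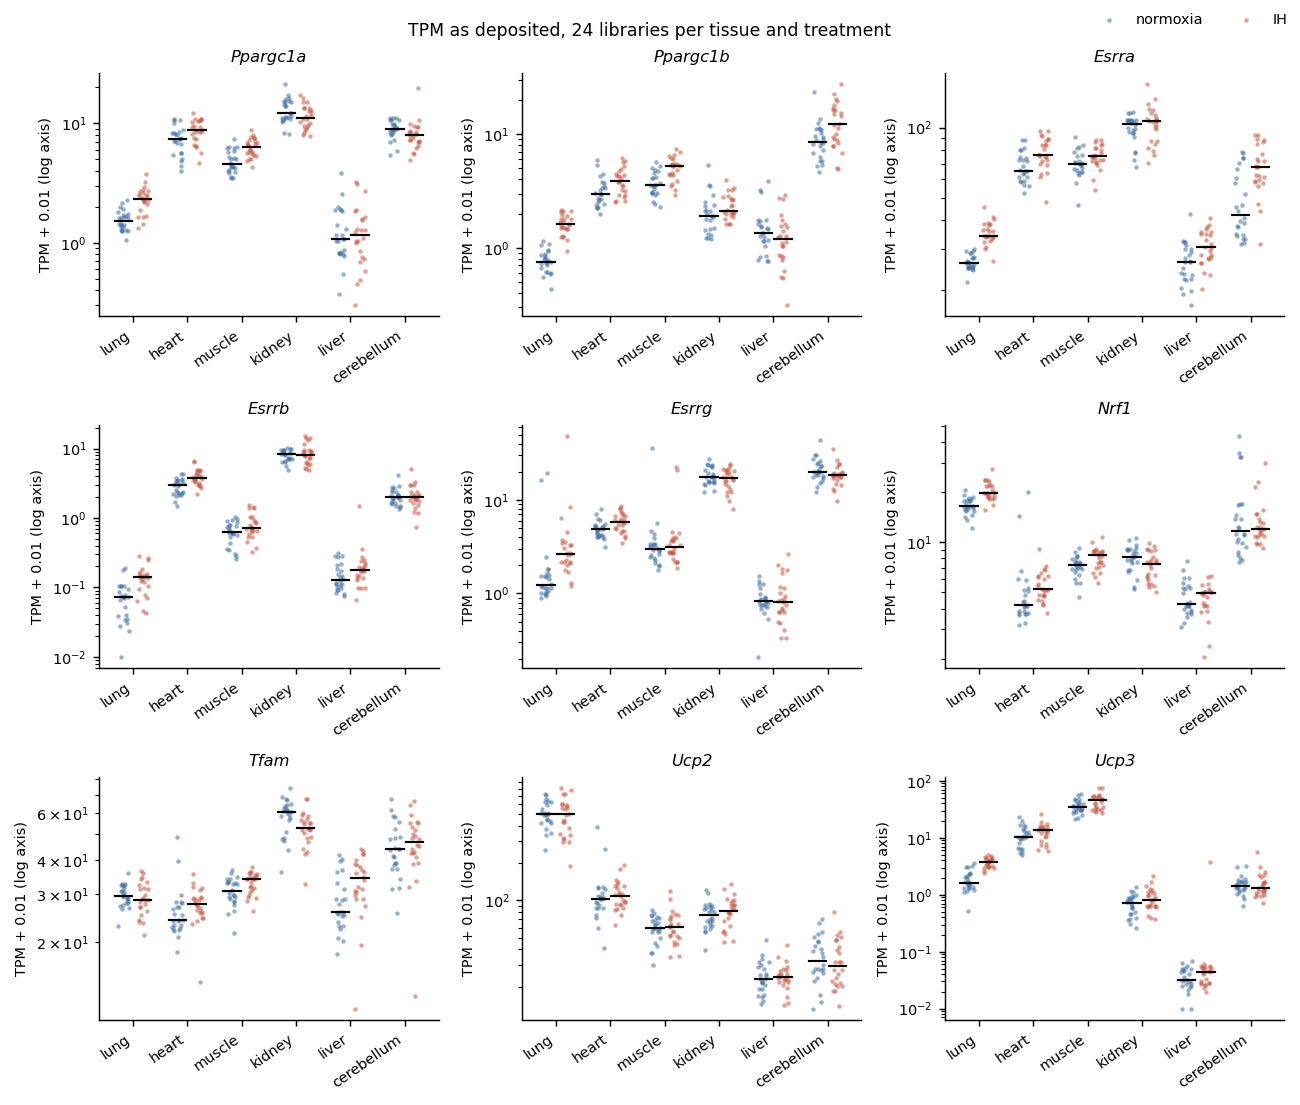
TPM as deposited (plus 0.01, log axis) of the 9 members in 6 tissues, with 24 normoxia and 24 IH libraries each; the bar is the median. In normoxia, Ucp2 is highest in the lung (mean 503 TPM), Ucp3 in muscle (36.3 TPM) and Esrrb in the kidney (8.01 TPM). Kidney Esrrb is clear of the next tissue only within normoxia. Heart libraries reached 6.51 TPM of it after IH, and the lowest normoxia kidney library held 4.95.

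The question of the treatment comparison is whether a week of IH left a change in mean expression over the day. The filter kept 48 pairs of member and tissue and removed 6: Esrrb fell short in lung, muscle and liver, Esrrg in the liver, and Ucp3 in kidney and liver. At an adjusted p of at most 0.05, 6 of 8 members tested changed in the lung (70.4% of all genes tested there), 1 of 9 in the heart (45.2%), 2 of 8 in muscle (10.4%), 0 of 8 in the kidney (19.8%), 2 of 6 in the liver (24.2%) and 1 of 9 in the cerebellum (15.0%). The limma count of 0 in the kidney stands beside 3 members with an unadjusted p of at most 0.05. The members' share lay near that of all genes in the lung and below it in heart and kidney, so these counts are no result about the members, and the other shares rest on few genes. Of the 12 pairs, 10 rose and 2 fell. With 0.5 TPM added, only Ucp3 in the lung passed 1.5-fold as well, where 13.48% of all genes did; the shares were 2.95% in heart, 0.374% in muscle, 0.783% in kidney, 3.65% in liver and 2.64% in cerebellum, with none of the members. This depended on the amount added: with 0.1 TPM lung Ppargc1b passed too (0.71), and with 1 TPM no member did.

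Scaling mattered. The median change of all genes was -0.08 on the log2 scale in the lung after scaling and 0.21 as deposited, 0.04 and 0.15 in the heart, -0.00 and 0.09 in muscle, -0.01 and -0.05 in the kidney, -0.01 and -0.12 in the liver, and -0.01 and -0.01 in the cerebellum. Without scaling, 15 pairs passed the threshold, of which 9 were among the 12, so each of the 12 is given on both scales. Those 15 were 6 in the lung (65.7% of all genes), 5 in the heart (43.9%) and 2 in muscle (15.2%). Kidney, liver and cerebellum held 0, 1 and 1 (7.82%, 21.8% and 6.29% of all genes). In scaled values the 24 IH libraries overlapped the 24 normoxia libraries for every member in every tissue.

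**Figure D3:**
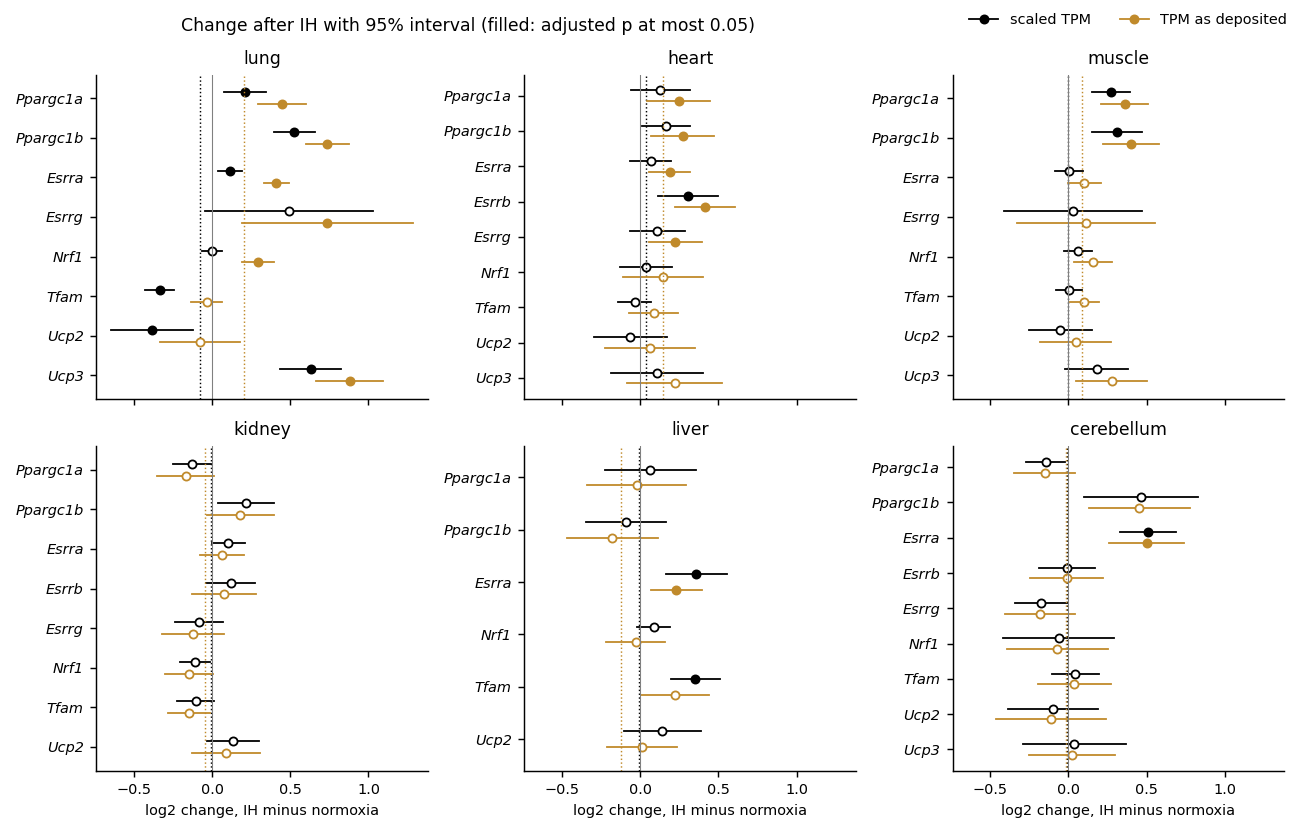
log2 change (IH minus normoxia) with its 95% interval for each member tested, by tissue, from 24 against 24 libraries; black is scaled TPM, yellow TPM as deposited, and dotted lines mark the median of all genes. Filled points have an adjusted p of at most 0.05: Ppargc1b and Ucp3 in the lung lie far right of both medians, and Tfam and Ucp2 lie left of them.

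Ppargc1b rose in the lung. In deposited TPM it ran from 0.419 through a median of 0.745 to 1.13 in normoxia, and from 0.934 through 1.60 to 2.12 after IH. Only the lowest IH library reached into the normoxia range. The log2 change was 0.53 (95% interval 0.40 to 0.66, adjusted p 1.1e-09), with higher means at 8 of 8 time labels, and 0.74 as deposited, above the median of all genes on either scale. Within replicates 1, 2 and 3 it was 0.53, 0.49 and 0.54. Without 1 of the replicates in turn the adjusted p was at most 2.5e-06. Ppargc1a in the lung went from 1.05, 1.51 and 2.28 TPM (lowest, median, highest) to 1.33, 2.34 and 3.73, so the groups overlapped widely. Its change was 0.21 (adjusted p 0.00533, higher at 7 of 8 time labels; 0.45 as deposited), but -0.10 within replicate 1 against 0.28 and 0.42 in the others. The adjusted p of Ppargc1a ranged from 1.1e-06 to 0.301 over the alternatives. The share of Ppargc1b in the coactivators' summed TPM was 33.2% (SD 5.84) in normoxia and 41.4% (SD 7.48) after IH. Cell type markers of the lung, described beside Ucp3 and Ucp2 below, moved too: medians went from 511 to 932 TPM for cardiomyocyte, 341 to 636 for macrophage and 48557 to 42451 for alveolar markers. Their part in the lung changes of Ppargc1a, Ppargc1b, Esrra and Tfam was not tested.

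Muscle was the other tissue where both coactivators passed. Ppargc1b there ran from 2.28 through 3.55 to 5.73 TPM in normoxia and from 2.88 through 5.23 to 7.40 after IH. Most IH libraries lay in the upper part of the normoxia range or above it. The log2 change was 0.31 (adjusted p 0.00568, higher at 8 of 8 time labels), with 0.23, 0.43 and 0.29 within the replicates and 0.40 as deposited. Ppargc1a went from 3.45, 4.55 and 7.37 TPM to 4.32, 6.37 and 8.77, again with wide overlap. It changed by 0.27 (adjusted p 0.00151, higher at 7 of 8), with 0.18, 0.23 and 0.41 within the replicates and 0.36 as deposited. Without 1 of the replicates in turn, these calls did not all stand: the adjusted p reached 0.168 for Ppargc1b and 0.0951 for Ppargc1a. Skeletal muscle fibre markers (10 of 10 at 1 TPM or more, none at 0, Acta1 the most abundant) summed to 98545, 144863 and 166192 TPM (lowest, median, highest) in normoxia and 94540, 137274 and 149868 after IH, with lower means in 3 of 3 replicates. Cardiomyocyte markers (7 of 10 and then 8 of 10, none at 0, Actc1) summed to 599, 1107 and 2340, then 207, 981 and 3059. Their part in these changes was not tested.

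In the cerebellum Ppargc1b went from 4.63, 8.56 and 23.6 TPM to 4.96, 12.2 and 27.5, a change of 0.46 that missed the threshold (adjusted p 0.0744, higher at 5 of 8 time labels), and Ppargc1a changed by -0.14 (adjusted p 0.101). The share of Ppargc1b was 49.3% (SD 8.97) in normoxia and 59.7% (SD 11.4) after IH there. It was 13.6% (SD 3.00) and 17.1% (SD 2.50) in the kidney, and 54.3% (SD 10.4) and 50.7% (SD 8.74) in the liver. Heart held 30.4% (SD 5.27) and 31.1% (SD 3.82), and muscle 43.4% (SD 6.86) and 44.1% (SD 3.64). These shares were not tested. Heart Ppargc1b changed by 0.16 (adjusted p 0.0789) and liver Ppargc1b by -0.09 (adjusted p 0.629).

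Esrra changed in 3 tissues. In the cerebellum it ran from 31.4 through 42.2 to 78.7 TPM in normoxia and from 31.5 through 67.6 to 93.0 after IH. The medians lay apart within widely overlapping ranges. The change was 0.51 (95% interval 0.33 to 0.69, adjusted p 7.8e-05, higher at 8 of 8 time labels), 0.50 as deposited, and 0.51 without the library labelled 1:30 replicate 3. It was uneven over replicates: 0.58 and 0.83 in replicates 1 and 2, and 0.12 in replicate 3, whose normoxia libraries averaged 58.1 scaled TPM (SD 10.6, n = 8) against 45.8 and 39.7 in replicates 1 and 2. Without replicate 2 the adjusted p was 0.16. Cerebellar neuron markers (6 of 6 at 1 TPM or more, none at 0, Pcp2 the most abundant) summed to 1367, 3233 and 4906 TPM (lowest, median, highest) in normoxia and 322, 3628 and 5266 after IH. Their means moved in the same replicates as Esrra: 2862, 2946 and 3783 in normoxia, then 3542, 3723 and 3102. Endothelium markers (5 of 5, none at 0, Cldn5) averaged 114, 104 and 124 TPM in the normoxia replicates and 143, 158 and 141 after IH. Cardiomyocyte markers (10 of 10, none at 0, Myl2) averaged 2421, 1449 and 1057, then 1215, 911 and 2163. The last mean (SD 3594) is carried by the library labelled 1:30 replicate 3 at 11003 TPM (median of the other IH cerebella 686). The IH replicate 1 mean (SD 2191) includes 6587 TPM in the library labelled 10:30. The part of these 3 lists in the change of Esrra was not tested. As a share of the receptors' summed TPM, Esrra was 66.6% (SD 7.17) in normoxia and 76.1% (SD 4.77) after IH. Esrrg in the cerebellum changed by -0.17 (adjusted p 0.16), and by -0.21 (adjusted p 0.0494) without the library labelled 1:30 replicate 3.

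In the liver Esrra went from 17.2, 26.3 and 42.4 TPM to 20.2, 30.4 and 40.8. The IH libraries lay within the normoxia range. The change was 0.36 (adjusted p 0.00488, higher at 8 of 8 time labels), and 0.23 as deposited, where the median gene fell. Without replicate 1 or 2 it missed the threshold (adjusted p 0.159 and 0.18). It was 0.47 in replicates 1 and 2 and 0.11 in replicate 3, and 0.33 without the library labelled 13:30 replicate 2. The summed hepatocyte markers (6 of 6 at 1 TPM or more, Alb the most abundant) differed in the same replicates: means of 64481 and 65667 TPM in normoxia and 41570 and 42852 after IH in replicates 1 and 2, but 70309 and 66466 in replicate 3. Kidney tubule markers (2 of 6 and then 3 of 6, Kap the most abundant) had medians of 3.38 TPM in normoxia and 82.7 after IH. Cardiomyocyte markers had medians of 19.6 and 52.9 TPM. The part of all these markers in the change of Esrra was not tested. In the lung Esrra went from 21.7, 26.2 and 29.9 TPM to 26.7, 34.2 and 45.5 as deposited. That change was 0.41 as deposited and 0.11 after scaling (adjusted p 0.00813), with 0.29, 0.04 and -0.03 within the replicates. The adjusted p of Esrra in the lung ranged from 2.5e-12 to 0.813 over the alternatives.

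Esrrb in the heart was the only member called there. It ran from 1.48 through 2.97 to 4.34 TPM in normoxia and from 2.21 through 3.76 to 6.51 after IH. Several IH libraries exceeded the normoxia range. The change was 0.30 (adjusted p 0.00775, higher at 7 of 8 time labels), 0.41 as deposited, 0.29 without the 5 lymphocyte-rich libraries, and 0.35, 0.29 and 0.30 within the replicates. Without 1 of the replicates in turn, this call did not always stand. Some marker sums rose in the heart, while others stayed alike or fell. Cardiomyocyte markers (10 of 10 at 1 TPM or more, none at 0, Myl2 the most abundant) had medians of 31806 TPM in normoxia and 32983 after IH. Medians went from 7270 to 6679 TPM for brown fat markers (Cox8b) and from 269 to 215 for alveolar markers (Hopx). Endothelium markers (5 of 5 at 1 TPM or more, none at 0, Pecam1 the most abundant) summed to 109, 186 and 326 TPM (lowest, median, highest) in normoxia and 185, 266 and 380 after IH. Macrophage markers (5 of 7, none at 0, Csf1r) summed to 23.9, 39.4 and 63.2, then 31.9, 54.3 and 90.3, and white fat markers (5 of 5, none at 0, Cfd) to 20.1, 176 and 1291, then 20.3, 344 and 1082. Their part in the change of Esrrb was not tested. Esrrg in the lung changed by 0.49 (adjusted p 0.0966); without the libraries labelled 22:30 replicate 2 and 10:30 replicate 1 the change was 0.58 (adjusted p 9.9e-05).

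Nrf1 did not pass the threshold in any tissue after scaling. In the lung it went from 12.2, 16.46 and 20.6 TPM to 15.6, 19.8 and 27.7 as deposited. That was a change of 0.29 as deposited (adjusted p 1.3e-06) but of -0.00 after scaling (adjusted p 0.951), close to the all-gene medians on both scales. In the heart Nrf1 changed by 0.04 (adjusted p 0.744), and by 0.09 (adjusted p 0.0388) without the 5 lymphocyte-rich libraries. Elsewhere its changes lay between -0.11 in the kidney and 0.09 in the liver.

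Tfam moved in opposite directions in lung and liver. In the lung its deposited TPM were 22.9, 29.5 and 35.9 (lowest, median, highest) in normoxia and 21.1, 28.7 and 36.6 after IH. These ranges nearly coincide, while the median gene rose. After scaling Tfam fell by 0.33 (adjusted p 2.2e-08), its mean being higher at 0 of 8 time labels; as deposited the change was -0.03 (adjusted p 0.557), so it lay below the all-gene median on both scales. Within the replicates it was -0.23, -0.35 and -0.45. In the liver Tfam went from 18.02, 25.7 and 42.0 TPM to 11.3, 34.3 and 44.2, the lowest being the library labelled 13:30 replicate 2. The change was 0.35 (adjusted p 0.00088, higher at 8 of 8 time labels) and 0.38 without that library; as deposited it was 0.22 (adjusted p 0.126). As for Esrra, replicates 1 and 2 gave 0.49 and 0.46 and replicate 3 gave 0.07, and without replicate 1 or 2 the adjusted p was 0.11 and 0.105. The part of the markers given beside liver Esrra was not tested.

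Ucp3 rose in the lung as well. Its deposited TPM ran from 0.514 through 1.62 to 3.61 in normoxia and from 2.35 through 3.82 to 4.99 after IH. The IH libraries all lay above the normoxia median. The change was 0.63 (1.55-fold, 95% interval 0.44 to 0.83, adjusted p 1.7e-07, higher at 8 of 8 time labels), 0.88 as deposited, and 0.45, 0.78 and 0.64 within the replicates. Without 1 of the replicates in turn the adjusted p was at most 8.7e-05. Markers of muscle cells were higher in these libraries too. Cardiomyocyte markers (10 of 10 at 1 TPM or more, none at 0, Myl7 the most abundant) summed to 296, 511 and 1155 TPM (lowest, median, highest) in normoxia and 446, 932 and 1316 after IH. Skeletal muscle fibre markers (6 of 10 and then 9 of 10, Ckm and then Acta1 the most abundant) had medians of 28.3 and 45.1 TPM, and brown fat markers (3 of 6 and then 4 of 6, Cox8b the most abundant) 76.3 and 99.8. Their part in the change of Ucp3 was not tested. In muscle itself Ucp3 changed by 0.18 (adjusted p 0.274) and in the heart by 0.11 (adjusted p 0.582).

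Ucp2 in the lung went from 254, 495 and 725 TPM to 189, 496 and 808 as deposited. The medians were alike and the IH libraries spread further both ways. After scaling Ucp2 fell by 0.38 (adjusted p 0.00872, higher at 0 of 8 time labels); as deposited the change was -0.08 (adjusted p 0.605). It rested on replicates 1 and 2 (-0.77 and -0.61), while replicate 3 gave 0.20. Cell type markers differed by replicate too. Alveolar markers (6 of 6, Sftpc the most abundant) averaged 49599, 44779 and 48693 TPM in the normoxia replicates and 31276, 33193 and 45858 after IH. Endothelium markers (5 of 5, Cldn5) averaged 1676, 1381 and 1404, then 1049.8, 1093 and 1415. Macrophage markers (7 of 7, Chil3) averaged 452, 303 and 301, then 567, 545 and 1115. The last mean (SD 981) includes a library at 3520 TPM. Neither these lists nor lymphocyte markers (6 of 6, Cd79a; 103 and 86.7 TPM over all replicates) were tested for a part in the change of Ucp2. In the other tissues Ucp2 changed by between -0.10 and 0.14, none past the threshold.

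**Figure D4:**
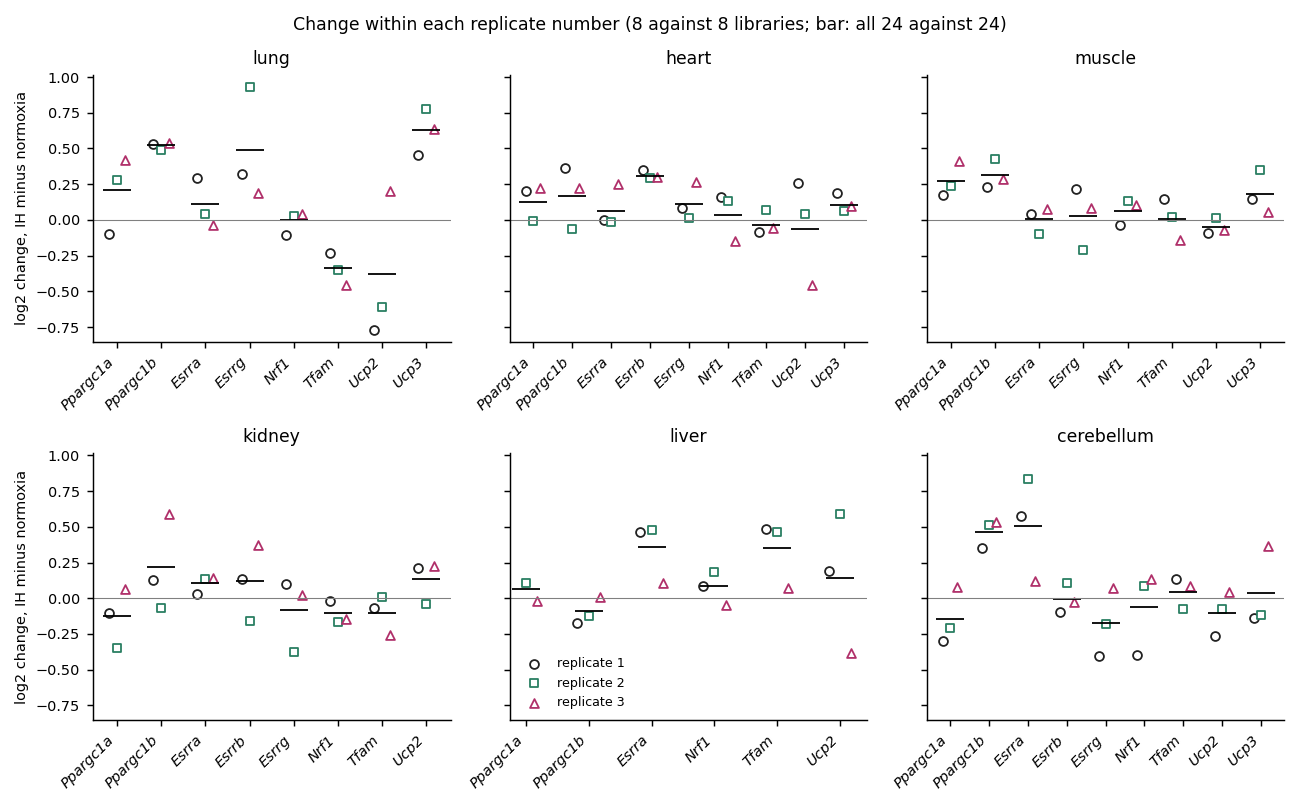
log2 change (IH minus normoxia) within each replicate number, 8 against 8 libraries, with a bar for all 24 against 24. Ppargc1b and Ucp3 in the lung are above 0 in all 3 replicates, whereas Ucp2 in the lung, and Esrra and Tfam in the liver, differ between replicate 3 and the others.

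Whether an effect differed between tissues was tested in 1 fit of all libraries. The IH effect differed among the 6 tissues for 6 of the 9 members (82.2% of all genes): Ppargc1a, Ppargc1b, Esrra, Tfam, Ucp2 and Ucp3. As deposited it differed for 8, all but Ucp2 (adjusted p 0.887). Over the alternatives the adjusted p reached 0.0989 for Ppargc1a, 0.0622 for Ppargc1b, 0.12 for Esrra and 0.182 for Ucp3. For Tfam it reached 0.0455. Without the libraries labelled 22:30 replicate 2 and 10:30 replicate 1, Esrrg joined them (adjusted p 2.0e-05) and Ucp2 did not pass (0.0718). Set against the lung, 3 members differed in the heart (56.3% of all genes), 2 in muscle (41.2%), 4 in the kidney (49.0%), 5 in the liver (52.9%) and 5 in the cerebellum (52.5%), shares below or near those of all genes. This fit keeps genes by their mean over all tissues, so it includes pairs where a member fell short of 1 TPM in a tissue; with the member above that level in both tissues, 18 of 37 pairs were called. Tfam was the member that set the lung apart from all 5 tissues, from -0.23 in the kidney to -0.69 in the liver, where the difference had an adjusted p of 1.3e-12. As deposited, its difference from the kidney was 0.11 and none of the 5 passed the threshold. Ucp3 rose more in the lung than in heart (0.53), muscle (0.45) and cerebellum (0.60), and each of these was larger as deposited. Its call against the liver is no comparison of 2 changes, since Ucp3 averaged 0.0263 TPM there. Ppargc1b rose more in the lung than in the liver (0.62, adjusted p 0.000457; 0.91 as deposited), the only 1 of 19 such differences that kept its call under every alternative run for them; 10 of the 19 kept it as deposited. Esrra rose less in the lung than in the cerebellum (-0.40, adjusted p 0.000191), but by -0.09 as deposited (adjusted p 0.521). Esrrg differed between lung and kidney and between lung and cerebellum; without the libraries labelled 22:30 replicate 2 and 10:30 replicate 1, it rose more in the lung than in heart, muscle, kidney and cerebellum, by 0.47 to 0.75. Organs of 1 mouse may be linked, which the labels do not record.

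Rhythm over 24 hours was tested with a cosine curve in each tissue and treatment. Of 48 pairs, 8 were called in normoxia and 5 after IH. Most of these calls depended on the setting: a rank test called 3 and 1, and deposited TPM gave 1 in each treatment. In normoxia the 8 were 1 of 8 members in the lung (9.14% of all genes), 0 of 9 in the heart (0.626%; 1 with an unadjusted p of at most 0.05), 2 of 8 in muscle (6.38%), 3 of 8 in the kidney (21.0%), 2 of 6 in the liver (17.7%) and 0 of 9 in the cerebellum (0% of all genes; 4 unadjusted). After IH they were 0 of 8 in the lung (4.65%; 0 unadjusted), 2 of 9 in the heart (4.17%), 2 of 8 in muscle (8.83%), 0 of 8 in the kidney (5.74%; 0 unadjusted), 1 of 6 in the liver (2.63%) and 0 of 9 in the cerebellum (0.0134%; 1 unadjusted). As a reference for phase, Arntl in normoxic lung peaked at hour 22.3 of the label scale (7.37-fold from trough to peak), Nr1d1 at 6.11, Dbp at 8.09 and Per2 at 12.8.

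Esrra in the liver was the member called in both treatments by the cosine fit and by a rank test. In normoxia it averaged 19.3 scaled TPM (SD 2.4, n = 3) at 4:30 and 31.0 (SD 1.2) at 13:30, and after IH 23.5 (SD 3.1) at 4:30 and 46.0 (SD 17) at 13:30. The curve peaked at hour 13.6 with a 1.49-fold range (adjusted p 9.9e-05), and after IH at hour 13.2 with a 1.75-fold range (adjusted p 0.0256, and 0.0222 without the library labelled 13:30 replicate 2). The rank test gave 0.00271 and 0.042; over the alternatives the adjusted p reached 0.0113 in normoxia and 0.4 after IH. Esrra in the normoxic kidney had a small range (1.19-fold, peak at 15.5, adjusted p 0.024, rank test 0.0287).

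Ppargc1b peaked early in the label scale in 3 tissues. In normoxic muscle it fell from 5.07 scaled TPM (SD 0.51) at 7:30 to 2.93 (SD 0.84) at 16:30, and after IH from 5.92 (SD 0.77) at 4:30 to 3.46 (SD 0.36) at 16:30. The fitted peaks were at 6.80 (adjusted p 0.00521) and 5.99 (0.0461, and 0.0796 without the libraries labelled 22:30 replicate 2 and 10:30 replicate 1). Peaks in the normoxic kidney and liver lay at 4.83 (adjusted p 0.0141) and 7.57 (0.0376); in the liver after IH the adjusted p was 0.0629, and 0.0195 without the library labelled 13:30 replicate 2. Ucp3 behaved likewise in normoxic muscle (peak 5.34, 1.55-fold, adjusted p 0.023) and in the heart after IH. There it went from 21.4 scaled TPM (SD 3.2) at 7:30 to 7.14 (SD 1.2) at 16:30 (peak 7.47, 2.06-fold, adjusted p 0.0193). Esrrg in the normoxic kidney peaked at 5.33 (adjusted p 0.0436). Of these pairs the rank test called only Ppargc1b in normoxic muscle (adjusted p 0.0363). It gave 0.181 for Ppargc1b in muscle after IH, 0.0515 and 0.139 in normoxic kidney and liver, 0.0627 and 0.066 for Ucp3 in muscle and heart, and 0.0957 for Esrrg.

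Ucp2 peaked later. In the normoxic lung it reached 752 scaled TPM (SD 40) at 10:30 against 477 (SD 139.9) at 1:30, with a peak at 10.8 (1.46-fold, adjusted p 0.0288, and 0.0763 without the libraries labelled 22:30 replicate 2 and 10:30 replicate 1). In muscle after IH it stood at 76.5 (SD 9.0) at 10:30 and 76.7 (SD 20.03) at 16:30 against 46.7 (SD 3.7) at 1:30 (peak 14.4, adjusted p 0.004). Heart Ucp2 after IH peaked at 11.6 with an adjusted p of 0.0432, which was 0.0945 without the lymphocyte-rich libraries. The rank test called none of the 3 (adjusted p 0.0509, 0.0636 and 0.0602). The rhythm was not shown to differ between treatments for any member: 0 of 48 pairs passed in limma (0% of 80157 tests of a gene in a tissue), with 4 at an unadjusted p of at most 0.05 and the lowest adjusted p at 0.825.

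**Figure D5:**
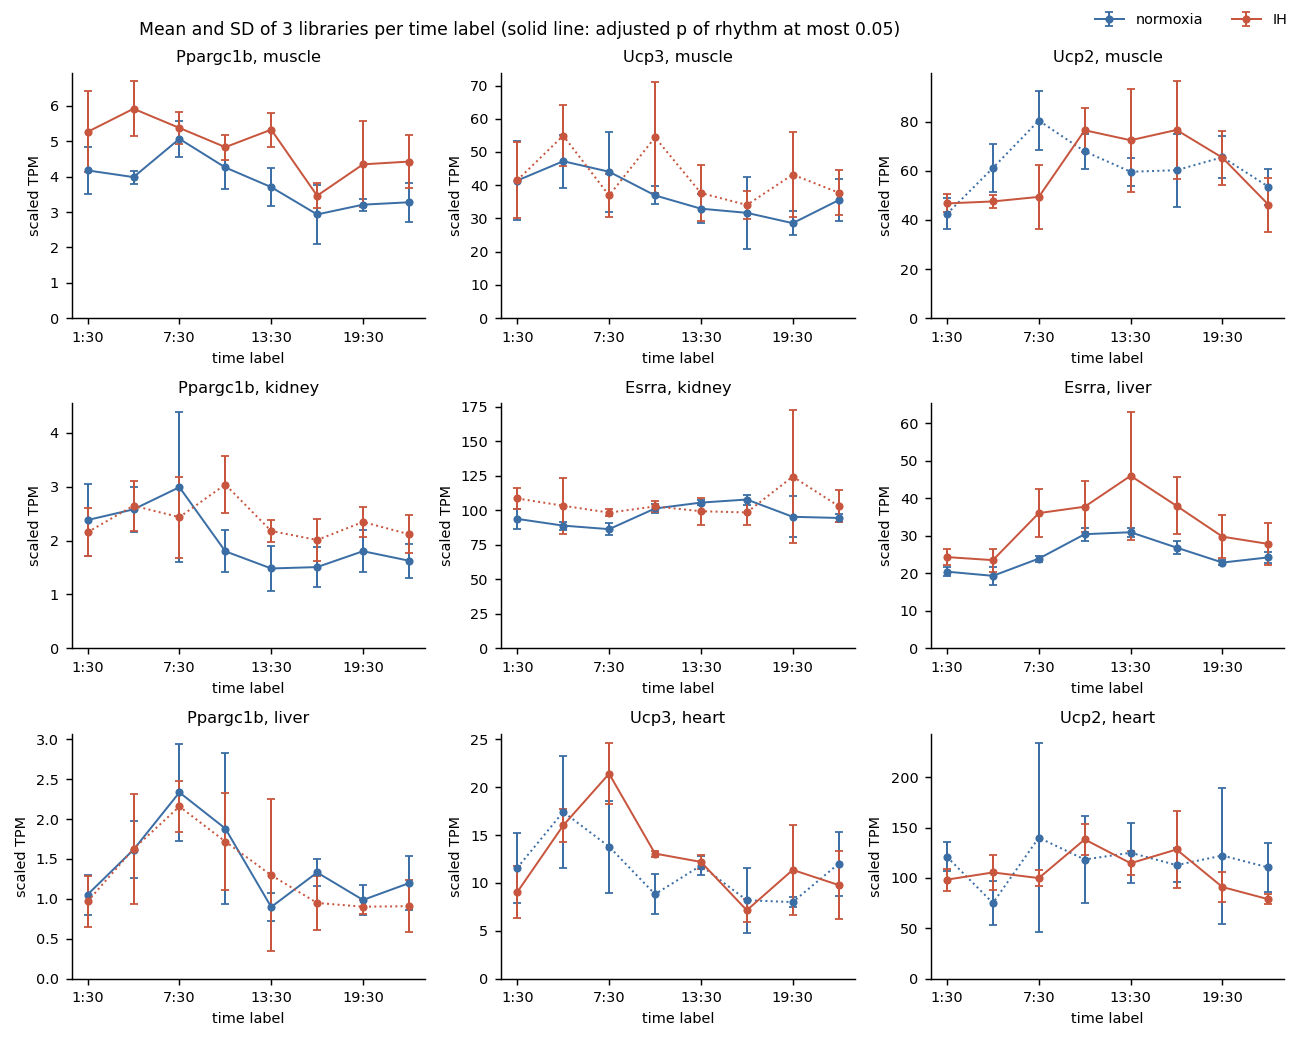
Scaled TPM (mean and SD of 3 libraries) against the time label for 9 member and tissue pairs called in 1 or both treatments; a solid line marks an adjusted p of at most 0.05 of the cosine curve in that treatment. Ppargc1b and Ucp3 peak between 4:30 and 7:30 in most panels, and Esrra in the liver at 13:30.

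Genes around the members were taken from 5 lists. Of all genes tested, 28.9% rose and 41.5% fell in the lung, 28.0% and 17.3% in the heart, 5.48% and 4.89% in muscle, 8.25% and 11.5% in the kidney, 10.9% and 13.3% in the liver, and 9.76% and 5.24% in the cerebellum. As deposited, 65.7% were called in the lung, and 83.7% of these rose. The partners of the coactivators held 16 genes, of which 7 rose and 3 fell in the lung (median change 0.14, all genes -0.08; as deposited 13 rose and 0 fell); Perm1, a muscle regulator induced through PGC-1 and the ERRs, averaged 1.02 TPM (SD 0.158) in normoxia and 2.35 (SD 0.495) after IH, a change of 0.67 (adjusted p 1.3e-13). In the other tissues the numbers rising and falling were 6 and 2 in heart (7 and 0 as deposited), 2 and 0 in muscle (2 and 0), 1 and 3 in kidney (0 and 1), 2 and 1 of 15 in liver (0 and 1) and 1 and 1 in cerebellum (0 and 0). The next list held 20 symbols for genes of oxidative metabolism that ERRs and PGC-1 are known to switch on. Among them Atp5f1b, another symbol of the listed Atp5b, had no values. Of 19 tested in the lung, 4 rose and 12 fell (median -0.26; as deposited 9 rose and 1 fell, median 0.05 against 0.21 for all genes), although Cpt1b, which lets fatty acids into mitochondria, rose by 0.98 (adjusted p 3.3e-12). The muscle markers given beside Ucp3 were higher in the same lungs, and their part in the changes of Perm1 and Cpt1b was not tested. In the heart 11 of 19 rose and 2 fell (median 0.20, all genes 0.04; 14 and 2 as deposited), and the part of the heart markers given beside Esrrb was not tested. The numbers were 0 and 2 in muscle (0 and 0 as deposited), 1 and 3 of 17 in the kidney (0 and 3), and 0 and 2 in the cerebellum (0 and 2). In the liver 5 rose and 1 fell, but 5 and 5 as deposited, and the median change was -0.02 (all genes -0.01). The largest were Mb (1.49), Fabp3 (1.31) and Cox6a2 (1.18), and without the library labelled 13:30 replicate 2 they were 1.14, 0.97 and 0.85 (adjusted p 2.2e-05, 2.8e-05 and 6.0e-05). Cardiomyocyte markers moved with them. In the liver these markers (8 of 10 at 1 TPM or more and then 9 of 10, none at 0, Myl2 the most abundant) summed to 7.35, 19.6 and 86.5 TPM (lowest, median, highest) in normoxia and 36.6, 52.9 and 9544 after IH. Their replicate means were 19.0, 20.1 and 55.4, then 57.7, 1238 and 51.5, beside changes of Mb of 1.63, 2.46 and 0.34. The mean of 1238 (SD 3356) is carried by the library labelled 13:30 replicate 2 at 9544 TPM (median of the other IH livers 51.5). The Mb change of 2.46 includes that library too. The part of these markers in the changes of Mb, Fabp3 and Cox6a2 was not tested.

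The list for copying and reading mitochondrial DNA, the work that Tfam takes part in, had 16 genes. Of these 4 rose and 4 fell in the lung (13 and 0 as deposited), 2 and 4 in the heart (6 and 2), 1 and 0 in muscle (6 and 0), 2 and 2 in the kidney (0 and 1), 0 and 2 in the liver (0 and 3), and 2 and 2 in the cerebellum (1 and 0). Polrmt, the mitochondrial RNA polymerase, fell by 0.63 in the liver (adjusted p 0.000207), from 11.01 TPM (SD 2.56) to 6.73 (SD 2.86), with -1.01 and -0.97 in replicates 1 and 2 and 0.07 in replicate 3. The hepatocyte markers given beside liver Esrra differed in the same replicates, and their part in the change of Polrmt was not tested. Of 8 fusion and fission genes, 3 rose and 2 fell in the lung (7 and 0 as deposited), 3 and 1 in the heart (4 and 1), 0 and 1 in the kidney (0 and 0), 2 and 0 in liver and in cerebellum (1 and 0 in each), and 0 and 0 in muscle (0 and 0). The last list held 6 other uncoupling and adenine nucleotide carriers, with 2 rising and 3 falling in the lung (3 and 0 as deposited), 1 and 1 in the heart (1 and 1), 2 and 1 of 4 in the liver (1 and 1), 0 and 0 in muscle (1 and 0), and none in kidney and cerebellum on either scale. Slc25a27, an uncoupling protein relative known from brain, averaged 3.05 TPM (SD 0.737) in the normoxic lung and 9.51 (SD 4.09) after IH, a change of 1.15 (adjusted p 3.0e-12; 1.58, 1.30 and 0.53 within the replicates). Cerebellar neuron markers (0 of 6 at 1 TPM or more) in these lungs had medians of 0.232 TPM in normoxia and 0.892 after IH. Alveolar markers differed by replicate, as given beside Ucp2. The part of both lists in the lung change of Slc25a27 was not tested. In the heart Slc25a27 fell by 0.65 (adjusted p 1.2e-07), from a low level of 2.11 TPM (SD 0.970) to 1.19 (SD 0.402). The change was -0.74, -0.79 and -0.40 within the replicates and -0.57 as deposited. A part of the heart markers given beside Esrrb in this change was not tested.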

How the data were processed

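The submitters' notes describe mouse libraries processed with bcl2fastq, FastQC 0.11.3, kallisto and DESeq2, and the authors deposited TPM per gene in 12 tables. Depth is not in these tables, so the precision that it gives is unknown. The members and lists were chosen with earlier results of these data known. TPM were scaled within each tissue by the median of ratios, and log2 of scaled TPM plus 0.5 was fitted with limma 3.58.1 (R 4.3.3) where a gene averaged 1 TPM or more, with an intensity trend and Benjamini-Hochberg adjustment over all genes tested. Calls used an adjusted p of 0.05, or with 1.5-fold. Rhythm was an F-test of cosine and sine terms of 24 hours; tissue differences were interaction terms over all libraries. Genes outside the members were named by rule: per tissue up to 3 largest rises and falls in each direction among list genes past both thresholds, the 3 genes most like each member, and clock genes as references. Clauses on libraries left out, on replicates alone and on the spread of each tissue alone were chosen after seeing the data. Npas2 was also named after its value was seen. Intervals are 95%. Tables and plots came from Python 3.11.15 with pandas 2.3.3, numpy 2.4.6, matplotlib 3.10.9 and scipy 1.17.1. Planned protein comparisons were left out because no protein table was at hand.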

Additional observations from a re-analysis of the deposited data

Results flagged for a closer look

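Differences between the log2 IH effect in the lung and that in another tissue passed an adjusted p of 0.05 in the interaction test for 19 of 45 pairs. All are given as lung minus the other tissue in scaled TPM. Ppargc1a differed by 0.34 from the kidney and by 0.35 from the cerebellum. For Ppargc1b the differences were 0.36 from the heart and 0.62 from the liver. Esrra gave -0.25 against the liver and -0.40 against the cerebellum. Esrrg gave 0.57 against the kidney and 0.66 against the cerebellum, from libraries that include those labelled 22:30 replicate 2 and 10:30 replicate 1. Tfam differed in all 5 tissues, by -0.30 from the heart, -0.34 from muscle, -0.23 from the kidney, -0.69 from the liver and -0.38 from the cerebellum. Ucp2 differed by -0.51 from the kidney and -0.52 from the liver. Ucp3 differed by 0.53 from the heart, 0.45 from muscle and 0.60 from the cerebellum. The value for Ucp3 against the liver, 0.46, is no comparison of 2 changes: Ucp3 averaged 0.0263 TPM in normoxic liver and did not pass the filter there. With the member past the filter in both tissues, 18 of 37 pairs were called. The fit gives all tissues 1 estimate of the spread; with the spread of each tissue alone, 18 of the 19 passed. With deposited TPM 9 of the 19 did not pass: all 5 of Tfam, both of Esrra and both of Ucp2. Among them the differences of Esrra from the liver and of Tfam from the kidney changed sign. Without replicates 1, 2 or 3 in turn, 6, 12 and 3 did not pass. The libraries are taken as independent, since the labels do not say which organs came from 1 mouse.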

How the results depend on the processing

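Of the 12 changes called after IH, only those of Ppargc1b and Ucp3 in the lung kept direction and call under every alternative in which they were tested (a minimum of 5 TPM removed both), and of the 19 differences from the lung only that of Ppargc1b from the liver did under the alternatives run for differences. The alternatives for the changes include the number of genes detected as a term, from which no result is drawn for lung and heart. With or without it, the same changes keep their calls. The count of changed rhythms was 0 under all alternatives. Changes of sign are given for the 26 pairs of member and tissue called in at least 1 setting; other pairs with small changes, such as Esrrg in the kidney or Tfam in muscle, changed sign as well.

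With TPM as deposited, 5 members were called in the heart (43.9% of all genes) and 1 in the liver (21.8%). On that scale 3 pairs passed 1.5-fold, and 1 pair was rhythmic in each treatment. Lung Nrf1 turned to 0.29, and the differences of Esrra from the liver and of Tfam from the kidney to 0.18 and 0.11. A minimum of 5 TPM left 3 calls in the lung, 0 in the heart, 1 in muscle and 0 with 1.5-fold, fewer members being tested. Without a minimum, 4 pairs were rhythmic in normoxia and 2 after IH. A pseudocount of 0.1 gave 2 pairs past 1.5-fold, and 1 gave 0. The rank test called 3 rhythms in normoxia and 1 after IH. Time label as a factor gave 2 calls in the cerebellum and 1 in the kidney.

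The number of genes detected as a term left 0 calls in the heart and gave 1 in the kidney. It turned lung Esrra to -0.043, Esrrg to -0.40, Nrf1 to 0.018 and Ucp2 to 0.48, and heart Ppargc1a to -0.29, Ppargc1b to -0.26, Esrra to -0.15, Esrrb to -0.14 and Esrrg to -0.26. In the heart this number parted the treatments completely. There the fit compares the treatments at numbers that they do not share, and no result is drawn from its values. In the lung only 1 normoxia library, labelled 1:30 replicate 2 (25400 genes), overlapped: the others held at most 23480 and the IH libraries at least 23622. The lung fit thus compares the treatments at numbers shared through that library alone, and no result is drawn from its values.

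Leaving out 1 replicate number of both treatments at a time gave 0 to 2 calls in the heart, 1 to 2 in muscle, 0 to 2 in the kidney, 0 to 3 in the liver and 0 to 3 in the cerebellum. It gave 0 to 3 pairs past 1.5-fold, 1 to 2 rhythmic pairs in normoxia and 0 to 2 after IH, 1 to 5 members differing among tissues and 7 to 20 pairs differing from the lung. Among the 26 pairs, signs changed for heart Nrf1 (-0.014 to 0.139), lung Nrf1 (-0.032 to 0.040), liver Ucp2 (-0.086 to 0.393), heart Esrra (-0.016 to 0.115) and kidney Esrrb (-0.011 to 0.255).

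Alternatives chosen after seeing the data gave 2 calls in the heart without the 5 lymphocyte-rich libraries, and moved lung Nrf1 to 0.00 without the libraries labelled 22:30 replicate 2 and 10:30 replicate 1. Without the cerebellum library labelled 1:30 replicate 3, 2 members were called there. The cause of these differences was not tested.

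Replicate numbers were not taken as pairs. The residuals of equal numbers had mean correlations of -0.108 in the lung to 0.209 in the liver over 24 pairs each. In liver and muscle, equal numbers were more alike than unequal ones (0.209 against -0.101, and 0.132 against -0.0639). There 16 and 14 of 24 IH libraries were most like the normoxia library of their own number, and 4 to 10 elsewhere. What equal numbers share was not tested. With the replicate as a block, the counts called stayed at 6, 1, 2, 0, 2 and 1 in lung, heart, muscle, kidney, liver and cerebellum, and 9 and 6 pairs were rhythmic in normoxia and after IH. Depth limits the low values most, such as Esrrb in the lung, and cannot be judged from TPM.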
